A study of Mus musculus with 24 samples.

Results

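Reactive astrocyte genes are the transcripts that astrocytes switch on or raise when the brain is injured or inflamed. The 10 described here are Gfap, Vim, Cd44, Serpina3n, Osmr, Lcn2, Steap4, Timp1, S1pr3 and Cd109. They were chosen by symbol among the 57126 genes of the deposited count tables, with earlier results of these data known. Each matched a single Ensembl gene. Their RNA was counted in cerebellum and hippocampus, both dissected from each of 12 mice (strain BALB/cNctr-Npc1m1N/J), a model of Niemann-Pick disease type C1 in which a mutation carried in every cell removes the lysosomal cholesterol exporter NPC1. Dipyridamole, which blocks nucleoside uptake and phosphodiesterases, was given to 4 Npc1-/- mice, while 4 Npc1-/- mice and 4 Npc1+/+ littermates were given the PBS:PEG400 vehicle. Dipyridamole was given intraperitoneally at 30 mg/kg on 5 days of each week from postnatal day 28, and all mice were injected on that schedule. The Npc1-/- mice were taken at postnatal day 63 and the Npc1+/+ mice at day 65. The dipyridamole group held 2 males and 2 females, the Npc1-/- vehicle group 3 males and 1 female, replicate 3, and the Npc1+/+ group 4 females. The comparisons ask how these genes differ with the loss of Npc1, whether dipyridamole moves them in the mutant, and whether the 2 brain regions differ.

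Astrogliosis is the response of astrocytes to nearby damage: the cells enlarge, fill with intermediate filaments, and change their surface receptors and secreted proteins. GFAP and vimentin are the filaments, CD44 and the oncostatin M receptor are surface receptors, and serpin A3N, lipocalin-2 and TIMP-1 are secreted. Oncostatin M and related cytokines of the interleukin-6 family act through such receptors on the transcription factor STAT3, a known activator of Gfap. Several members are also made by other cells, Cd44 and Lcn2 by leukocytes and Vim by vessel, ependymal and radial glial cells, so tissue RNA does not assign them to astrocytes.

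The 24 libraries held 1.83 to 11.59 M counts, median 7.98 M, and the shallowest was the cerebellum of Npc1-/- vehicle replicate 2. Npc1 itself was lower in both mutant groups, at 13.4 to 27.3 CPM (counts per M counts of the TMM-scaled library) in dipyridamole cerebellum and 21.7 to 37.6 CPM in vehicle cerebellum, against 97.8 to 107 CPM in Npc1+/+ cerebellum. Cerebellar marker genes summed to 3630 to 6290 CPM in cerebellar libraries and 27.4 to 69.8 CPM in hippocampal ones, as labelled. The hippocampal markers were lowest in dipyridamole replicate 4, with 667 CPM against a range of 912 to 1570 CPM in the other mutant hippocampi. That library and the hippocampus of Npc1-/- vehicle replicate 2, the shallowest of its tissue, were also left out together as a check. Markers of choroid plexus, a tissue next to both regions, ranged from 79.4 to 8140 CPM over the 24 libraries. Age and the Ion codes, which the labels list as batch, take separate values in Npc1-/- and Npc1+/+ mice and cannot be told apart from genotype. The labels give 1 Ion code to both libraries of dipyridamole replicate 4, cerebellum and hippocampus. Cerebellar markers summed to 67.8 CPM in its hippocampal library, inside the hippocampal range, and every comparison called the same members without replicate 4.

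Of the 10 genes, 7 had enough counts to be tested in each tissue: Gfap, Vim, Cd44, Osmr, Cd109, Serpina3n and Timp1. Lcn2 with 78 counts, Steap4 with 100 and S1pr3 with 9 over all 24 libraries fell below the filter. In the files' GRCm39 annotation Gfap lies at chr11:102778162-102791738 on the minus strand and Vim at chr2:13578738-13587637 on the plus strand. Cd44 lies at chr2:102641486-102732010 and Osmr at chr15:6843058-6904450, both on the minus strand, and Cd109 at chr9:78522828-78623535 on the plus strand. Serpina3n lies at chr12:104372988-104380588 and Timp1 at chrX:20736405-20740974, both on the plus strand. Lcn2 lies at chr2:32274645-32278264 on the minus strand, Steap4 at chr5:8010457-8032213 and S1pr3 at chr13:51562675-51576833 on the plus strand. None shared exonic sequence with another gene that had counts. Serpina3n is one of a cluster of closely related serpin genes, so reads of near-identical copies could be split or shared. The panel reads 1 short amplicon per gene, so CPM are compared between samples for a gene and not between genes.

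Promoter windows are shown for the members called in both tissues, Gfap and Osmr, and for the other members whose change differed between the tissues, Cd44 and Serpina3n. They are RefSeq sequences of build GRCm38.p6, from 250 bases before to 50 bases after the annotated start, read 5′ to 3′, and their coordinates belong to that build and not to that of the counts. Capitals mark a match to the palindromic STAT-type letters TTCNNNGAA.
Gfap promoter, chr11:102897151-102897450, minus strand: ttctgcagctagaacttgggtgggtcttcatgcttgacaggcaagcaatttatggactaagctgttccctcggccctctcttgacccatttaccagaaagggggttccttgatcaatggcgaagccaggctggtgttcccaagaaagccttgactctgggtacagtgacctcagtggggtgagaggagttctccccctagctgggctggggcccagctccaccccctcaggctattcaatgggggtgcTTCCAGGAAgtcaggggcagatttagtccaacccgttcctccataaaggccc
Osmr promoter, chr15:6874264-6874563, minus strand: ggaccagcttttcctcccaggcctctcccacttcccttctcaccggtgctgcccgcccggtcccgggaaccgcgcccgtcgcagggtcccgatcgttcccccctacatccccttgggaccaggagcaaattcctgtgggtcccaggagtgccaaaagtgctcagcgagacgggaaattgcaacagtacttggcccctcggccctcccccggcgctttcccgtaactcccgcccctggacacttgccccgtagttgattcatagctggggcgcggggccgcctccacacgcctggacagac
Cd44 promoter, chr2:102901616-102901915, minus strand: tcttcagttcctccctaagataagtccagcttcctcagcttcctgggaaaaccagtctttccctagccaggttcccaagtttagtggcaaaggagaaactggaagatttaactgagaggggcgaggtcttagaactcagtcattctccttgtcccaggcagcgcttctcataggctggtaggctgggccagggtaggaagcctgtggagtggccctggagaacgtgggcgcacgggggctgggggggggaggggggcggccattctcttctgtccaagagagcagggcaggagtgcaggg
Serpina3n promoter, chr12:104406458-104406757, plus strand: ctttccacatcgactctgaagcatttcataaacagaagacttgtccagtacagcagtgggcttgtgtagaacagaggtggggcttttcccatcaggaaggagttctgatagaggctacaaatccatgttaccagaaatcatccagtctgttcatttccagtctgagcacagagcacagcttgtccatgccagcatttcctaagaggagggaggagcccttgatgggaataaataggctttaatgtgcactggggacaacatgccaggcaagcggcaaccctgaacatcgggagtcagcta
Gfap holds TTCCAGGAA, whose first base lies 2 bases before the annotated start. The window of Steap4, not printed, holds TTCCCGGAA with its first base 116 bases before the start. Among the 9 members with a window, all but Cd109, these 2 held a match, and 8.3% of all 32851 mouse windows did. The AP-1 letters TGACTCA or TGAGTCA were in 0 of 9 windows and 5.2% of all windows, and the kappa-B consensus of NF-kB was in 0 of 9 and 0.155%. The TGACTCA and TGAGTCA forms are the reverse complement of each other, every motif was searched on both strands, and none of these motifs overlapped another in a member. A match describes letters only, and the lack of one says only that these letters are not in this window.

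In the cerebellum of Npc1-/- vehicle mice 6 of the 10 genes were higher than in Npc1+/+ mice, 1 was tested and did not pass, and 3 were too low to test. Gfap was 13.7-fold higher in Npc1-/- vehicle mice than in Npc1+/+ mice, Serpina3n 7.91-fold, Cd44 7.26-fold, Cd109 4.86-fold, Osmr 3.82-fold and Vim 2.57-fold. These 6 of the 7 tested genes were called higher and 0 lower, with a call meaning a Benjamini-Hochberg adjusted p under 0.05 over all genes in the quasi-likelihood test of edgeR. Among all 12921 genes tested there, 9.95% were called, 5.91% higher and 4.04% lower. The CPM of all 7 tested genes were higher in every vehicle mutant than in every wild-type mouse, which held for 10.6% of all genes, with 10.1% of genes lower in every vehicle mutant. In the hippocampus 2 of the 7, Gfap and Osmr, passed, where 1.62% of 12740 genes were called, 1.02% higher and 0.597% lower. Vim, Gfap, Serpina3n and Osmr were higher there in every vehicle mutant than in every wild-type mouse, which held for 6.29% of genes, with 5.38% lower. The median log2 fold change of the 7 genes was 2.28 in cerebellum, against 0.0064 over all genes, and 0.72 in hippocampus, against -0.0134 over all genes. The filter asks for a minimum level in as many libraries as a group holds, which the mutants alone can meet. These counts therefore describe the tested genes and not all 10. Since the members were chosen with earlier results known, an excess over the share of all genes is no independent support. In tissue RNA, more cells of a type and more RNA per cell cannot be told apart.

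**Figure D1:**
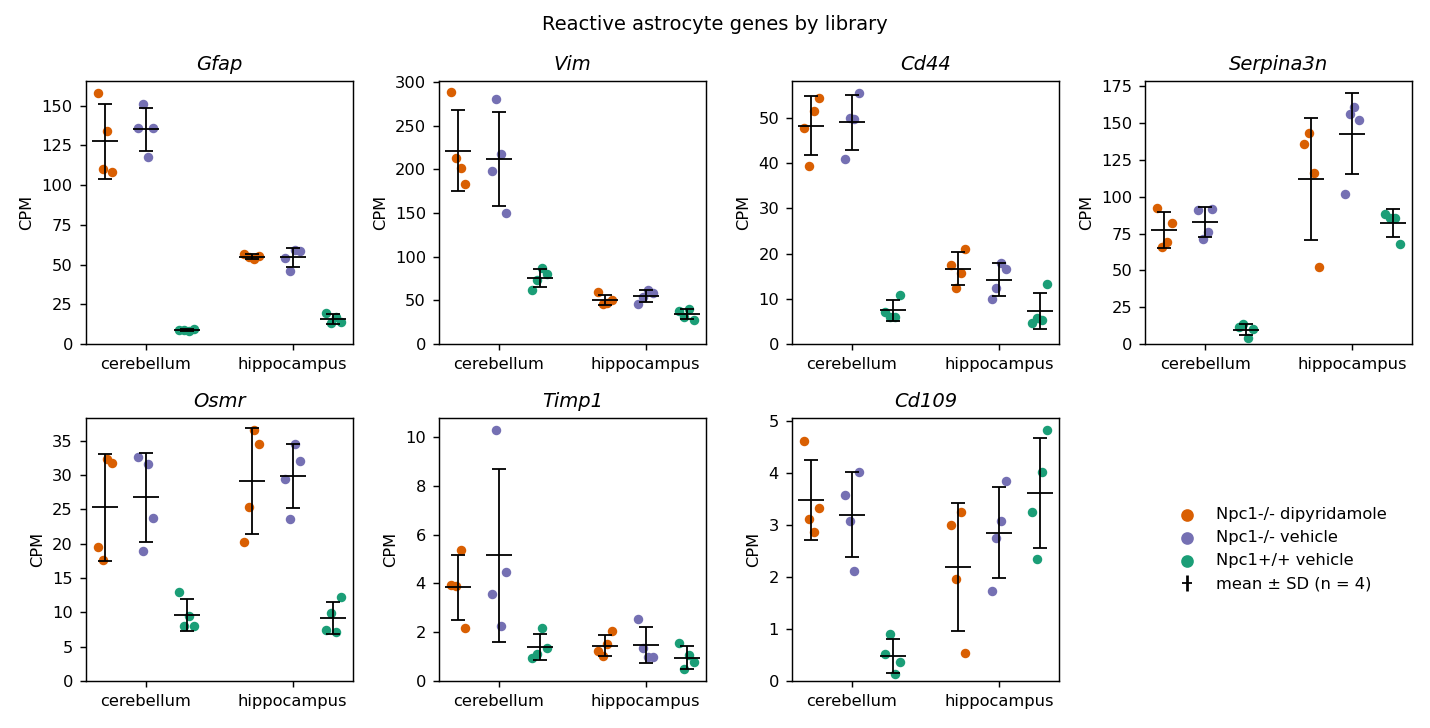
CPM of the 7 testable reactive astrocyte genes in each of the 24 libraries, by tissue and group, with the mean and SD of 4 mice. In cerebellum both Npc1-/- groups lie above Npc1+/+ mice for 6 genes without overlap, as for Gfap at 108 to 158 and 118 to 151 CPM against 8.34 to 9.33 CPM, while in hippocampus the Cd44, Serpina3n, Timp1 and Cd109 groups overlap.

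The intermediate filaments came first by role. Gfap, the main filament protein of astrocytes, stood in the cerebellum at 158, 110, 134 and 108 CPM in dipyridamole mice, 136, 151, 118 and 136 CPM in Npc1-/- vehicle mice, and 9.12, 9.1, 8.34 and 9.33 CPM in Npc1+/+ mice. In the hippocampus it stood at 56.6, 55, 53.5 and 55.5 CPM in dipyridamole mice, 54.5, 46.2, 59.3 and 58.5 CPM in Npc1-/- vehicle mice, and 19.9, 13.2, 17.3 and 13.9 CPM in Npc1+/+ mice. Every mutant library lay above every wild-type library of its tissue, and the 2 mutant groups overlapped. The vehicle mutants exceeded wild type by 3.78 ± 0.18 (log2, SE; adjusted p = 1.91e-10) in cerebellum, the third smallest p of all genes tested, and by 1.80 ± 0.18 (adjusted p = 0.000225) in hippocampus. Without the 2 hippocampal libraries in doubt Gfap and Osmr were still the members called there. Fitted folds adjust for sex, and so the fitted 13.7-fold differs from the ratio of the means, 135 ± 13.7 and 8.97 ± 0.435 CPM (SD, n = 4 each). Over 20 other settings in cerebellum and 21 in hippocampus the Gfap difference ran from 3.68 to 3.92 and from 1.70 to 1.92.

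Vim, the vimentin filament that astrocytes assemble with GFAP, stood in the cerebellum at 288, 213, 202 and 183 CPM in dipyridamole mice, 198, 280, 218 and 150 CPM in Npc1-/- vehicle mice, and 62, 73.4, 86.7 and 80.6 CPM in Npc1+/+ mice. In the hippocampus the values were 59.2, 45.5, 47 and 51.1 CPM in dipyridamole mice, 45.8, 53.9, 62.3 and 58.8 CPM in Npc1-/- vehicle mice, and 38, 31.3, 40.4 and 27.9 CPM in Npc1+/+ mice. Mutant and wild-type libraries did not overlap in either tissue, and the spread among mutants was wide in cerebellum. The vehicle mutants were higher by 1.36 ± 0.22 (log2, SE; adjusted p = 0.000431) in cerebellum, a call lost without Npc1-/- vehicle replicate 3, the only female of that group (1.10 ± 0.31, adjusted p = 0.0659). In hippocampus the difference was 0.72 ± 0.19 with a 95% interval of 0.30 to 1.13 and an adjusted p of 0.106 by edgeR, while DESeq2 called it.

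Among the surface proteins, Cd44, the receptor for hyaluronan, stood in the cerebellum at 47.7, 39.4, 51.4 and 54.4 CPM in dipyridamole mice, 40.9, 49.9, 49.7 and 55.5 CPM in Npc1-/- vehicle mice, and 7.12, 6.1, 5.9 and 10.8 CPM in Npc1+/+ mice. In the hippocampus it stood at 17.4, 12.4, 15.7 and 21.1 CPM in dipyridamole mice, 9.99, 12.4, 17.9 and 16.7 CPM in Npc1-/- vehicle mice, and 4.7, 5.86, 5.37 and 13.4 CPM in Npc1+/+ mice. The cerebellar groups were apart, whereas in hippocampus Npc1+/+ replicate 4 lay inside the mutant range. Cd44 was higher in vehicle mutants by 2.86 ± 0.23 (log2, SE; adjusted p = 1.64e-07) in cerebellum. In hippocampus the difference was 1.23 ± 0.38 with a 95% interval of 0.41 to 2.06 (adjusted p = 0.163).

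Osmr, the oncostatin M receptor subunit that pairs with gp130, stood in the cerebellum at 19.6, 17.6, 32.3 and 31.8 CPM in dipyridamole mice, 32.7, 19, 31.6 and 23.7 CPM in Npc1-/- vehicle mice, and 13, 8, 9.49 and 8 CPM in Npc1+/+ mice. In the hippocampus it stood at 20.2, 25.3, 36.6 and 34.5 CPM in dipyridamole mice, 29.5, 23.6, 34.5 and 32 CPM in Npc1-/- vehicle mice, and 7.41, 9.85, 7.12 and 12.2 CPM in Npc1+/+ mice. Mutant and wild-type libraries were apart in both tissues, and the ranges of the 2 tissues overlapped within each group. The vehicle mutants exceeded wild type by 1.93 ± 0.25 (log2, SE; adjusted p = 5.36e-05) in cerebellum and by 2.08 ± 0.25 (adjusted p = 0.000625) in hippocampus.

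Cd109, a membrane-anchored protein that binds transforming growth factor beta, was measured at few counts, from 19 to 118 per group of 4 libraries. In the cerebellum it stood at 4.61, 3.12, 2.86 and 3.33 CPM in dipyridamole mice, 3.58, 3.08, 2.12 and 4.02 CPM in Npc1-/- vehicle mice, and 0.521, 0.900, 0.128 and 0.364 CPM in Npc1+/+ mice. The hippocampal levels were 3, 1.97, 3.26 and 0.543 CPM in dipyridamole mice, 1.74, 2.75, 3.08 and 3.85 CPM in Npc1-/- vehicle mice, and 3.25, 2.35, 4.03 and 4.83 CPM in Npc1+/+ mice. Every Npc1+/+ cerebellum lay below every mutant cerebellum, and the hippocampal groups overlapped. The genotype difference was 2.28 ± 0.48 (log2, SE; adjusted p = 0.00478) in cerebellum and -0.43 ± 0.55 in hippocampus, with a 95% interval of -1.61 to 0.76. The cerebellar call was lost with only the 2 groups in the fit (2.07, adjusted p = 0.108) and with female mice only (2.07, adjusted p = 0.0693), a fit with 1 vehicle mutant that is assumed to vary like the other groups.

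Among the secreted proteins, Serpina3n, a serine protease inhibitor, stood in the cerebellum at 92.3, 65.8, 69 and 82.3 CPM in dipyridamole mice, 90.9, 71.5, 76.3 and 91.6 CPM in Npc1-/- vehicle mice, and 11.5, 13.7, 4.49 and 10.1 CPM in Npc1+/+ mice. In the hippocampus it stood at 136, 143, 116 and 52.2 CPM in dipyridamole mice, 102, 156, 161 and 152 CPM in Npc1-/- vehicle mice, and 88.5, 85.8, 85.4 and 67.8 CPM in Npc1+/+ mice. Serpina3n was already high in the wild-type hippocampus, where the vehicle mutants lay above it without overlap and dipyridamole replicate 4, the library with the lowest hippocampal markers, lay below it. The genotype difference was 2.98 ± 0.28 (log2, SE; adjusted p = 9.32e-07) in cerebellum. In hippocampus it was 0.60 ± 0.29 with a 95% interval of -0.03 to 1.22 (adjusted p = 0.431).

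Timp1, an inhibitor of matrix metalloproteinases, stood at 3.92, 3.9, 5.38 and 2.15 CPM in dipyridamole cerebella, 3.58, 10.3, 2.25 and 4.46 CPM in Npc1-/- vehicle cerebella, and 0.956, 1.1, 2.18 and 1.33 CPM in Npc1+/+ cerebella. The 10.3 CPM came from 20 counts in the shallowest library. Vehicle mutants did not overlap with wild type, by a margin of 2.25 against 2.18 CPM, and the dipyridamole group overlapped with it. The genotype difference was 1.31 ± 0.53 (log2, SE; 95% interval 0.19 to 2.43; adjusted p = 0.139). In the hippocampus Timp1 ran from 1.04 to 2.04 CPM in dipyridamole mice, 0.986 to 2.54 CPM in Npc1-/- vehicle mice and 0.469 to 1.54 CPM in Npc1+/+ mice, groups that overlapped, with a genotype difference of 0.65 ± 0.62.

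**Figure D2:**
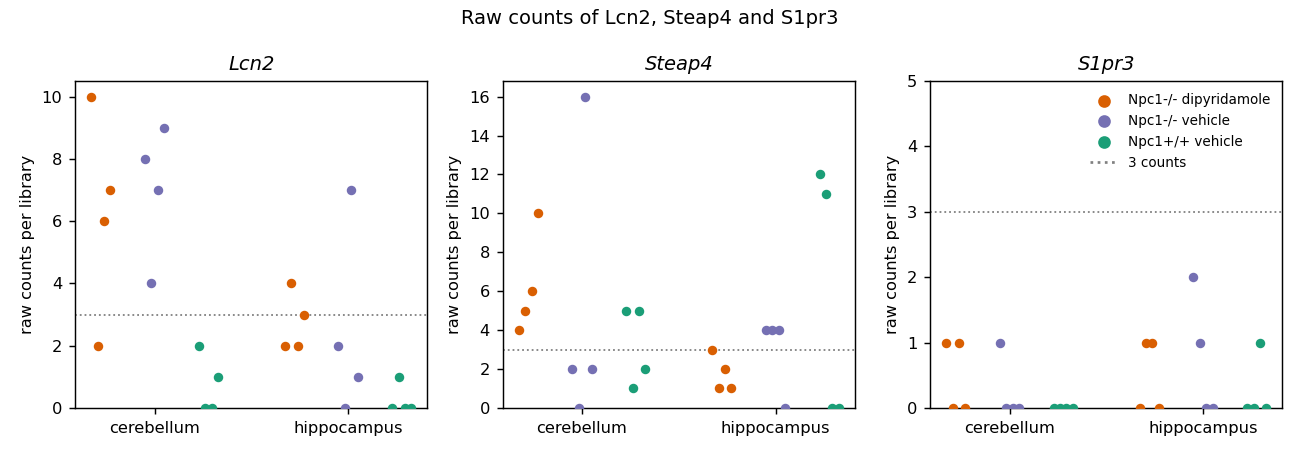
Raw counts per library of Lcn2, Steap4 and S1pr3, by tissue and group, with a dotted line at 3 counts. Lcn2 reaches 4 to 9 counts in the Npc1-/- vehicle cerebella and 0 to 2 in the Npc1+/+ cerebella, Steap4 shows no such separation, and S1pr3 never exceeds 2 counts.

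The other 3 members lay near the detection floor of 3 counts, which is 0.261 to 1.54 CPM depending on the library. Lcn2, a secreted carrier of iron-binding siderophores, had 10, 2, 6 and 7 counts in dipyridamole cerebella, 8, 4, 7 and 9 in Npc1-/- vehicle cerebella, and 2, 0, 0 and 1 in Npc1+/+ cerebella. Every vehicle mutant cerebellum had more than any wild-type one. The summed counts, 28 and 3, scaled to depth gave a ratio of 13.9 with an exact 95% interval of 4.28 to 71.2 that covers counting error only. In the hippocampus 10 counts in the vehicle mutants and 1 in wild type gave 13.4, with an interval of 1.91 to 583. Lcn2 entered no main test, and without the filter on low counts it was called higher in cerebellum, as was Timp1.

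Steap4, a metalloreductase of the cell surface and endosomes, had 4, 5, 6 and 10 counts in dipyridamole cerebella, 2, 0, 16 and 2 in Npc1-/- vehicle cerebella, and 5, 1, 5 and 2 in Npc1+/+ cerebella. The groups overlapped, and replicate 3 held 16 of the 20 counts behind the ratio of 2.28 of vehicle mutants over wild type (counting interval 1.08 to 5). In the hippocampus there were 3, 1, 2 and 1 counts in dipyridamole mice, 4, 4, 4 and 0 in Npc1-/- vehicle mice, and 12, 11, 0 and 0 in Npc1+/+ mice. S1pr3, a receptor for sphingosine 1-phosphate, had 0 counts in 16 of 24 libraries and at most 2 in any, so no difference was detectable at this depth. In the Npc1+/+ cerebella it had 0 counts in 4 libraries, which allows up to 0.0799 CPM over the group.

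The 2 tissues differed in wild type before any effect of genotype. In Npc1+/+ mice 4 of the 7 tested genes differed between cerebellum and hippocampus. Over all genes 43.1% did, 21.3% higher and 21.8% lower in cerebellum, so the count is near the background. Vim was higher in cerebellum by 1.14 ± 0.16 (log2, SE; edgeR adjusted p = 1.46e-05, cerebellum over hippocampus). Serpina3n was lower there by a log2 of -3.08 ± 0.29 (adjusted p = 4.38e-07), Cd109 by -2.80 ± 0.51 (adjusted p = 0.000240) and Gfap by -0.83 ± 0.16 (adjusted p = 0.000372). Cd44 at 0.11 ± 0.18, Osmr at 0.09 ± 0.21 and Timp1 at 0.49 ± 0.48 did not pass.

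The order of the levels over the 6 groups differed from gene to gene. For Gfap both mutant cerebella led, at 128 ± 23.8 CPM with dipyridamole and 135 ± 13.7 CPM with vehicle, followed by the mutant hippocampi at 55.2 ± 1.27 and 54.6 ± 6.01 CPM, the Npc1+/+ hippocampus at 16.1 ± 3.10 CPM and the Npc1+/+ cerebellum at 8.97 ± 0.435 CPM (SD, n = 4). Apart from the mutant pairs, which overlapped, each step in that order was free of overlap. Osmr fell into 2 levels, the 4 mutant groups with means of 25.3 to 29.9 CPM and the 2 wild-type groups at 9.63 and 9.15 CPM. For Serpina3n 5 groups overlapped their neighbours, from 143 ± 27.3 CPM in Npc1-/- vehicle hippocampus to 77.3 ± 12.3 CPM in dipyridamole cerebellum, and the Npc1+/+ cerebellum stood below them at 9.93 ± 3.92 CPM.

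The effect of genotype itself was larger in cerebellum than in hippocampus for Gfap, Cd44 and Serpina3n. With the mouse as block, the cerebellar minus the hippocampal log2 difference was 1.95 ± 0.26 for Gfap (adjusted p = 0.00101), 1.54 ± 0.30 for Cd44 (adjusted p = 0.0126) and 2.51 ± 0.48 for Serpina3n (adjusted p = 0.0169). These were 3 of 7 tested genes, where 1.15% of 13436 genes were called, 0.543% with a larger value in cerebellum. For Osmr the difference was -0.19 ± 0.36, with a 95% interval of -0.94 to 0.56, and for Vim 0.61 ± 0.28 (adjusted p = 0.521). Cd109 had the largest estimate, 2.77 ± 0.84, and did not pass (adjusted p = 0.169). Without Npc1-/- vehicle replicate 3 only Gfap was still called, with Cd44 at 1.79 (adjusted p = 0.126) and Serpina3n at 3.21 (adjusted p = 0.0615). The Serpina3n call was also lost without Npc1+/+ replicate 1 (adjusted p = 0.0998), without Npc1+/+ replicate 4 (adjusted p = 0.0682) and without the filter (adjusted p = 0.156), and the Cd44 call without the mouse block (adjusted p = 0.122).

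**Figure D3:**
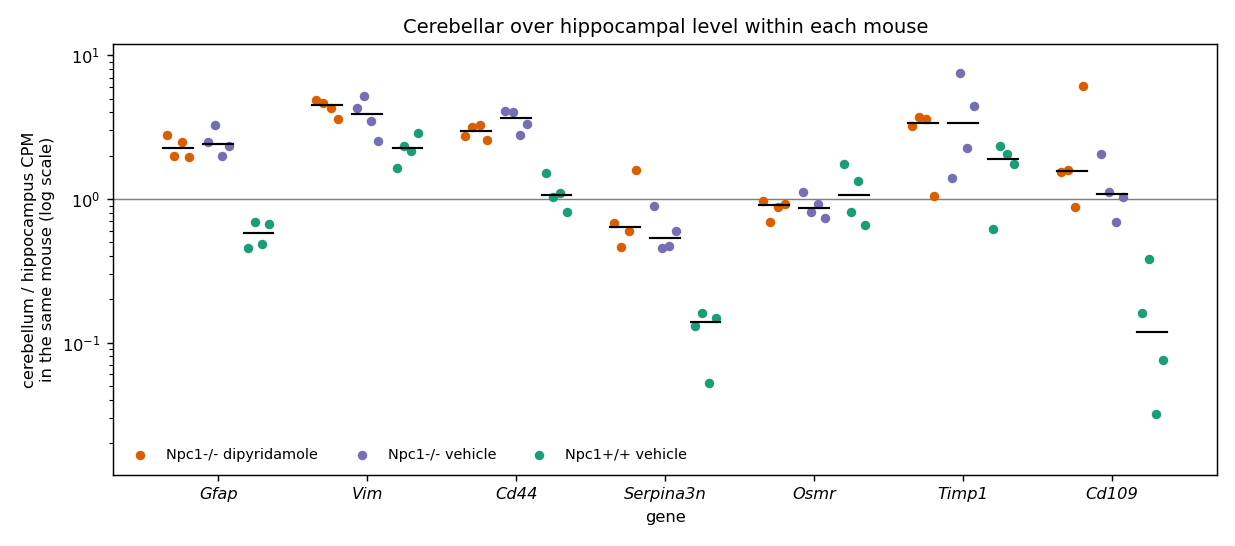
Ratio of the cerebellar to the hippocampal CPM within each mouse on a log axis, with the median of 4 mice as a bar and a line at 1. Gfap lies above 1 in all 8 Npc1-/- mice, 1.95 to 3.27, and below 1 in all 4 Npc1+/+ mice, 0.458 to 0.689, while Osmr lies around 1 in every group.

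The same contrast was read within single mice. The Gfap ratio ran from 1.95 to 2.79 in dipyridamole mice, from 1.99 to 3.27 in Npc1-/- vehicle mice and from 0.458 to 0.689 in Npc1+/+ mice. The Cd44 ratio ran from 2.58 to 3.27, from 2.78 to 4.09 and from 0.806 to 1.51 in the same 3 groups, and the Serpina3n ratio from 0.46 to 1.58, from 0.458 to 0.891 and from 0.0526 to 0.16. The mutant groups lay apart from wild type for all 3 genes. These were the genes called above in the same libraries, so the ratios add no separate support. Cd109, which was not called, also lay apart, at 0.877 to 6.13, 0.688 to 2.06 and 0.0318 to 0.383 in the same groups. The share over all genes was not computed. For Gfap the cerebellum led in every mutant mouse and the hippocampus in every wild-type mouse.

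Dipyridamole was not seen to move any member in the mutant. By edgeR 0 of 7 tested genes passed in either tissue, 0 had an unadjusted p under 0.05, and DESeq2 also called 0. Among all genes 0% were called in either tissue, with 300 of 12921 genes in cerebellum and 93 of 12740 in hippocampus at an unadjusted p under 0.05, and 313 and 102 by DESeq2. These numbers lie below a share of 0.05 of the genes, which p-values would give without any effect. The reason for this shortfall was not tested, and the lack of calls is weak evidence for the absence of an effect. In no member did the dipyridamole and vehicle groups stand apart, which held in cerebellum for 0.65% of genes upward and 0.573% downward, and in hippocampus for 0.691% and 0.51%. For Gfap the difference of dipyridamole over vehicle was -0.04 ± 0.14 in cerebellum, with a 95% interval of 0.795-fold to 1.19-fold, and -0.01 ± 0.15 in hippocampus, with an interval of 0.796-fold to 1.25-fold.

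The other members had wider intervals. In cerebellum Vim was at 0.10 ± 0.18 (log2, SE), Cd44 at -0.07 ± 0.18, Serpina3n at -0.08 ± 0.22, Osmr at -0.29 ± 0.21, Timp1 at -0.05 ± 0.41 and Cd109 at 0.24 ± 0.33. In hippocampus Vim was at -0.14 ± 0.16, Cd44 at 0.13 ± 0.31, Serpina3n at -0.33 ± 0.24, Osmr at -0.20 ± 0.20, Timp1 at -0.06 ± 0.49 and Cd109 at -0.35 ± 0.46. Over the 7 genes the 95% intervals reached from -0.91 to 0.94 in cerebellum and from -1.33 to 1.00 in hippocampus, so the design does not show that treated and untreated mutants were alike. The lowest treated values of Serpina3n and Cd109 in hippocampus both came from replicate 4, and 0 members were called without the 2 libraries in doubt. Lcn2 had 25 counts in dipyridamole cerebella and 28 in Npc1-/- vehicle cerebella, a depth-scaled ratio of 0.674 with a counting interval of 0.377 to 1.2. No member differed between the tissues in its response to dipyridamole, with 0 of 7 called and 0% of genes called.

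**Figure D4:**
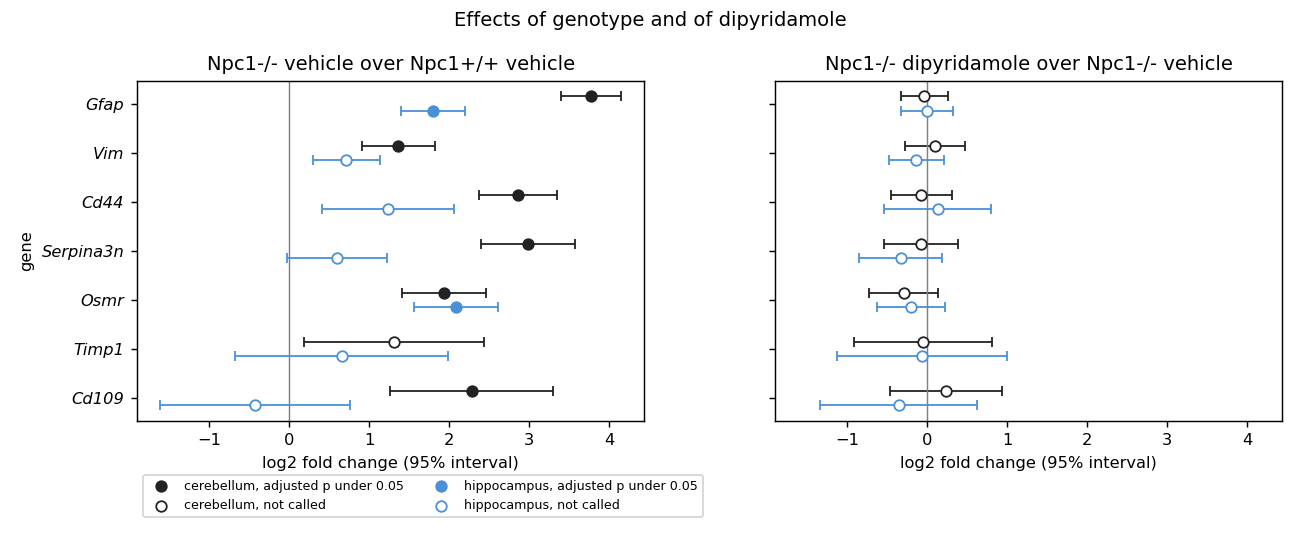
Fitted log2 fold changes with 95% intervals for the 7 tested genes, for genotype on the left and dipyridamole on the right, in cerebellum (black) and hippocampus (blue), filled where the adjusted p is under 0.05. In cerebellum the genotype estimates run from 1.31 for Timp1 to 3.78 for Gfap, and every dipyridamole interval spans 0.

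Set against wild type, treated mutants were higher in much of the group. In cerebellum 6 of 7 tested genes were called higher, where 14.4% of genes were called, 8.13% higher and 6.29% lower, at 3.74 ± 0.16 for Gfap, 2.90 ± 0.25 for Serpina3n, 2.79 ± 0.21 for Cd44, 2.52 ± 0.42 for Cd109, 1.64 ± 0.22 for Osmr and 1.46 ± 0.20 for Vim (log2, SE). These 6 genes were also free of overlap, which held for 13% of all genes upward and 12.8% downward. In hippocampus 2 of 7 were called, where 2.68% of genes were, 1.59% higher and 1.09% lower, with Osmr at 1.88 ± 0.22 and Gfap at 1.79 ± 0.17, and DESeq2 called Vim and Cd44 besides. Vim, Gfap and Osmr were free of overlap in hippocampus, which held for 6.82% of genes upward and 5.54% downward. This comparison uses the same Npc1+/+ libraries as the one of vehicle mutants, so the 2 are not independent.

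Other genes of reactive astrocytes were taken from the pan-reactive, A1 and A2 lists in common use. Of the remaining pan-reactive genes, Aspg, Cxcl10, Cp and Hspb1, 3 were tested, and Aspg and Cxcl10 were called higher in vehicle mutants in both tissues. Aspg, an asparaginase, differed by 3.06 ± 0.49 in cerebellum and 3.05 ± 0.38 in hippocampus (log2, SE), and Cxcl10, an interferon-induced chemokine, by 4.47 ± 0.72 and 5.46 ± 0.72. Of the list first defined after lipopolysaccharide, called A1, 7 of 10 tested were higher in cerebellum and 4 of 11 in hippocampus, and none was lower. C3, the central complement component, was called in both tissues, at 4.23 ± 0.28 in cerebellum and 2.95 ± 0.69 in hippocampus, close to the threshold in the second (adjusted p = 0.0494). Psmb8, an immunoproteasome subunit, was higher by 1.60 ± 0.27 and 1.44 ± 0.30 in the same tissues, and Ggta1, a galactosyltransferase of cell-surface glycans, by 1.53 ± 0.32 and 1.90 ± 0.35. Gbp2, an interferon-induced GTPase, was higher by 2.33 ± 0.46 in cerebellum, and H2-D1, a class I antigen-presenting molecule, by 1.73 ± 0.20 in hippocampus. The background for these counts is the 5.91% of genes called higher in cerebellum and 1.02% in hippocampus. These lists were also chosen with earlier results known, so an excess over that background is no independent support.

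Of the list first defined after ischaemia, called A2, to which Cd109 belongs, 3 of 7 tested were higher and 1 lower in cerebellum and 0 of 8 differed in hippocampus by edgeR. The shares of all genes were 5.91% higher and 4.04% lower in cerebellum, and 1.62% called in hippocampus. The higher A2 genes were Cd14, a coreceptor for lipopolysaccharide, at 1.98 ± 0.30, Emp1, a membrane protein, at 1.17 ± 0.36 and Stat3 at 0.74 ± 0.17. The lower one was B3gnt5, an enzyme of lacto-series glycolipid synthesis, at -3.81 ± 0.63, from 10 counts in vehicle mutants and 194 in wild type. Of the interleukin-6 family and STAT3 pathway, to which OSMR signals, 1 of 10 tested differed in cerebellum, which was Stat3 (adjusted p = 0.00819), and 0 of 12 in hippocampus, where Stat3 was at 0.63 (adjusted p = 0.0904), counts near the 9.95% and 1.62% of all genes called in those tissues. Il6 had 3 counts in all 24 libraries together.

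Of 10 relatives and partners of the filaments, all tested, 1 was higher and 1 lower in cerebellum, near the 5.91% and 4.04% of all genes. Lamp2, a lysosomal membrane protein, was higher at 0.62 ± 0.17 and S100b, a calcium-binding astrocyte protein, was lower at -0.54 ± 0.17, with 0 called in hippocampus by edgeR. Nes, the nestin filament, was at -0.07 in cerebellum and did not pass. Of 26 tested relatives and partners of Cd44, Timp1, S1pr3, Steap4, Lcn2 and Cd109, 6 were higher and 2 lower in cerebellum, and 0 of 27 differed in hippocampus. Over all genes 5.91% were higher and 4.04% lower in cerebellum and 1.62% were called in hippocampus, so the lower and the hippocampal counts are near the background. Mmp12, the macrophage metalloelastase, had 49 counts in vehicle mutants and 0 in wild-type cerebellum, which is 24.2-fold higher against a floor of 3 counts over the group, and at least 19.0-fold by the exact 95% counting limit against 0. Timp2, a metalloproteinase inhibitor like Timp1, was higher by 1.21 ± 0.24, Tgfb1, a ligand of the growth factor family that CD109 binds, by 1.31 ± 0.27, and Spp1, osteopontin, a CD44 ligand, by 0.99 ± 0.22. The 2 lower genes were Steap2, at -1.09 ± 0.28, and Timp4, at -0.59 ± 0.17, so the relatives of Timp1 did not all change in 1 direction.

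Marker genes of resting astrocytes and of microglia were set beside these results. Of the 14 astrocyte markers, at most 1 had 0 counts in any library, and only in Npc1+/+ hippocampus. The 14 markers summed to 7530 to 8150 CPM in dipyridamole cerebella, 6780 to 8430 CPM in Npc1-/- vehicle cerebella and 6800 to 6960 CPM in Npc1+/+ cerebella. In the hippocampi they summed to 6720 to 8520, 7710 to 8680 and 5500 to 6760 CPM in the same order of groups. By gene, 3 of 14 were higher in vehicle mutant cerebella (Aqp4 1.36 ± 0.30, Gja1 0.94 ± 0.15, Ntsr2 0.54 ± 0.16) and 2 lower (Slc1a3 -0.91 ± 0.16 and S100b), and in hippocampus 1 of 13 was higher (Aldoc 0.80 ± 0.18). Over all genes 5.91% were higher and 4.04% lower in cerebellum, and 1.02% were higher in hippocampus. The cerebellar sums of vehicle mutants and wild type overlapped where Gfap differed 13.7-fold, and their hippocampal sums did not overlap.

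Summed microglial and other myeloid markers were also higher in both mutant groups than in wild type, in both tissues. Their 12 genes summed to 623 to 756 CPM in dipyridamole cerebella, 638 to 764 CPM in Npc1-/- vehicle cerebella and 156 to 170 CPM in Npc1+/+ cerebella, and to 606 to 761, 581 to 766 and 339 to 465 CPM in the hippocampi of the same groups. Of 10 tested, 8 were higher in vehicle mutant cerebella, led by Cd68 at 3.89 ± 0.26 and Trem2 at 3.58 ± 0.30, and 2 in hippocampus. The share of all genes called higher was 5.91% in cerebellum and 1.02% in hippocampus. Itgam had 0 counts in all 24 libraries. The part of the myeloid markers in the result was not tested. Neutrophil and other leukocyte markers, 10 genes, summed to 2.75 to 21.4 CPM in dipyridamole cerebella, 3.1 to 6.61 CPM in Npc1-/- vehicle cerebella and 0.6 to 3.64 CPM in Npc1+/+ cerebella, with Cd79a at 0 throughout, and their part was not tested either. Endothelial markers, 8 genes, and mural and meningeal markers, 8 genes, had 0 called in either tissue by edgeR. Of all genes 9.95% were called in cerebellum and 1.62% in hippocampus. With a choroid plexus score as covariate the genotype comparisons called the same members, 6 in cerebellum and 2 in hippocampus.

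**Figure D5:**
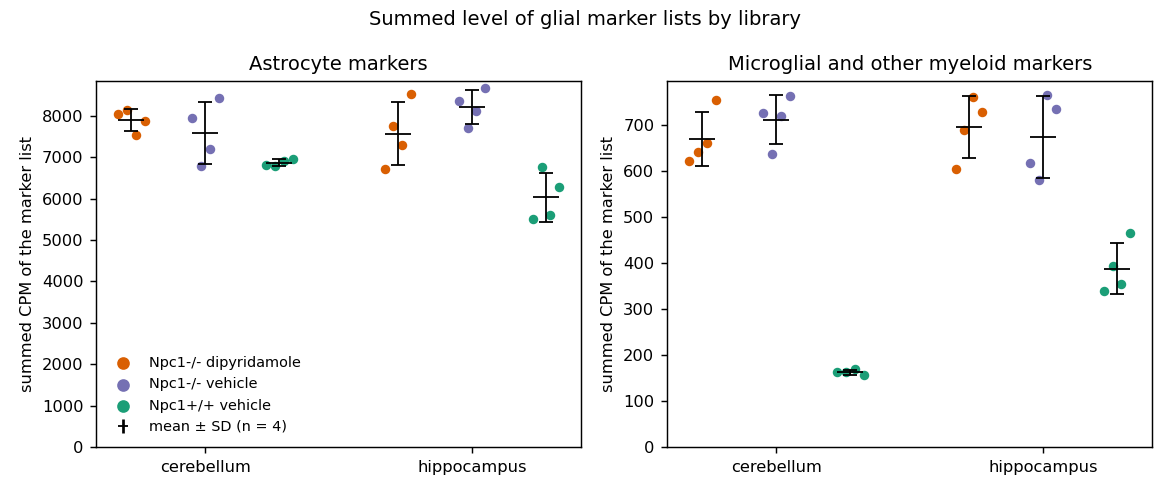
Summed CPM of 14 astrocyte markers and of 12 microglial and other myeloid markers in each library, by tissue and group, with the mean and SD of 4 mice. In cerebellum the astrocyte sums of Npc1-/- vehicle and Npc1+/+ mice overlap, 6780 to 8430 and 6800 to 6960 CPM, and the microglial sums do not, 638 to 764 and 156 to 170 CPM.

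The genes whose profile over the 24 libraries lay closest to that of Gfap were Hpse, Atp6v0d2, Cd22, C4b and Lgals3. Likeness was the root mean square difference of log2(CPM + 1), each gene centred on its own mean, over 12335 genes, and came to 0.293 for Hpse, 0.356 for Atp6v0d2, 0.36 for Cd22, 0.426 for C4b and 0.439 for Lgals3. Hpse, heparanase, stood at 21.6 ± 4.57 CPM in Npc1-/- vehicle cerebellum and 0.495 ± 0.0914 CPM in Npc1+/+ cerebellum (SD, n = 4 each). C4b, a complement component, stood at 69.5 ± 23.4 and 5.49 ± 0.458 CPM in the same groups. The nearest member, Cd44, ranked 28th with 0.635, Osmr ranked 120th and Vim 209th. In Npc1+/+ cerebellum Hpse, Atp6v0d2, Cd22 and Lgals3 had means under 1 CPM, where the added 1 shrinks a change. Their fitted genotype folds in cerebellum were 45.3, 120.5, 88.0 and 39.6, each above that of Gfap, and that of C4b was 10.1. A small distance therefore does not mean a change of equal size. These distances describe the libraries and carry no test.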

How the data were processed

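Total RNA of cerebellum and hippocampus from 12 mice was measured, per the labels' protocols, with a targeted panel (Ion AmpliSeq Transcriptome Mouse) read on an Ion S5 instrument. Per the submitters' processing notes the tools were FastQC 0.11.9, Trimmomatic 0.39, STAR 2.7.9a and featureCounts 2.0.3 with GRCm39. The deposited values are raw counts per gene, which the authors did not normalize, and the file headers name GENCODE vM34 and no strand option. The amplicons were not located here, and amplified reads that carry no molecular identifiers are not independent, so intervals and floors made from counts cover only counting error.

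IDs were matched to symbols for 51884 of 57126 genes, and IDs without one held 0.21% of counts. Replicate pairs differed beyond sampling noise (chi-square of 6.99 to 46.15 for each degree of freedom), so each library counted once, and each mouse was 1 replicate. Each tissue was fitted with edgeR 4.0.16 in R 4.3.3 (TMM, filterByExpr, robust quasi-likelihood test, sex as covariate, all 12 libraries), with Benjamini-Hochberg adjustment over all genes and 0.05 as threshold. Sex was estimated among Npc1-/- mice alone, since the Npc1+/+ mice were all female. Tissues were compared over 24 libraries with the mouse as block and sex allowed a separate effect in each tissue. Animal numbers in the labels give the pairing. Deviations of the same mouse's libraries correlated from -0.467 to 0.522, which by itself does not show the pairing. Among Npc1+/+ mice no cerebellar library correlated best with the hippocampal library of its own mouse. The scripts were tested on simulated counts. The members and gene lists were chosen with earlier results of these data known. The text names every member, Npc1, for each other list and tissue up to 4 genes past the threshold with the smallest p, and the 5 genes nearest to Gfap in profile. Nes, Cp, Hspb1, Il6, Steap2, Timp4, the marker genes and Stat3 in hippocampus were named after their values were seen. Alternatives were DESeq2 1.42.0, RLE factors, a replicate block, no sex covariate, no filter, females alone, fits of the compared groups alone and each mouse left out. A choroid plexus score as covariate and a fit without 2 hippocampal libraries were chosen after seeing the data.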

Additional observations from a re-analysis of the deposited data

Results flagged for a closer look

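Within groups of 4 libraries, 7 of 60 group checks of the members found the highest or lowest library far from the others, with its gap to the nearest, as a share of the group's range, above Dixon's 95% critical value. Chance would flag about 1 in 20 such groups if values were normally distributed. A lone count in a group otherwise at 0 is always flagged, so the 7 of 60 cannot be set against that share. Cd44 in the Npc1+/+ hippocampus was 13.4 CPM in replicate 4, against 4.7 to 5.86 CPM in the other mice. Serpina3n was lowest in Npc1-/- vehicle hippocampus replicate 1, with 102 CPM beside 152 to 161 CPM, and in Npc1+/+ hippocampus replicate 4, with 67.8 CPM beside 85.4 to 88.5 CPM. Steap4 reached 2.0 CPM, 16 counts, in Npc1-/- vehicle cerebellum replicate 3, where the other mice had 0 to 2 counts. The remaining flags each rest on 1 count in a group otherwise at 0: S1pr3 at 0.119 CPM in the Npc1-/- vehicle cerebellum and 0.134 CPM in the Npc1+/+ hippocampus, and Lcn2 at 0.117 CPM in the Npc1+/+ hippocampus.

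The effect of genotype differed between the tissues by test for Gfap, by 1.95 (cerebellum minus hippocampus, log2), for Serpina3n by 2.51 and for Cd44 by 1.54.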

How the results depend on the processing

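Of 443 recomputed fold changes of called members, 434 kept their direction and call, 9 kept their direction and lost the call, and 0 reversed. Of 348 recomputed counts, 319 stayed within 1.5 times. Numbers of members called ran, with each mouse left out, from 5 to 6 for genotype in cerebellum, 2 to 3 in hippocampus, 6 to 7 and 2 to 3 for treated mutants over wild type in the same tissues, 4 to 4 for tissue in wild type, 1 to 3 for genotype by tissue, and 0 to 0 for dipyridamole. For treated mutants over wild type in hippocampus DESeq2 called 4 members.

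Counts over all genes moved more. For genotype in cerebellum, 1286 genes became 2249 without the sex covariate, 421 with only the groups compared, and 474 to 1866 with a mouse left out, lowest without Npc1-/- vehicle replicate 3. For genotype in hippocampus, 206 genes became 490 without the sex covariate, 419 by DESeq2, 47 with only the groups compared, 51 in females, and 31 to 238 with a mouse left out. Leaving out Npc1-/- vehicle replicate 3 gave the 31, leaving out Npc1+/+ replicates 3 and 2 gave 102 and 118, and leaving out dipyridamole replicate 1 gave 122. For treated mutants over wild type, 1864 genes in cerebellum became 858 to 2307 with a mouse left out, lowest without dipyridamole replicate 4, and 1203 without dipyridamole replicate 3. In hippocampus 342 became 689 by DESeq2, 179 in females, 144 without the 2 libraries in doubt, and 130 to 428 with a mouse left out. It was 130 without dipyridamole replicate 4, 178 without Npc1+/+ replicate 3 and 199 without Npc1+/+ replicate 2. For genotype by tissue, 155 became 386 without the tissue by sex term and 27 to 227 with a mouse left out, 27 without Npc1-/- vehicle replicate 3 and 90 without Npc1+/+ replicate 3. Without a filter 13 genes were called for dipyridamole in cerebellum, none of them a member. The causes were not tested.

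Replicate numbers do not pair mice across groups, since the animal numbers in the labels differ. Same-numbered libraries correlated from -0.431 to 0.496. This cannot decide the pairing, because libraries of the same mouse also had mixed sign, from -0.467 to 0.522. A replicate block left 613 and 55 genes for genotype in cerebellum and hippocampus, and 1171 and 195 for treated mutants over wild type, with the same members called. Depth limits Lcn2, Steap4 and S1pr3, and widens the intervals of Timp1 and Cd109.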
